A study of Mus musculus with 12 samples.

Results

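The genes described are the chromatin remodelers and histone-modifying enzymes, with their reader and scaffold subunits, among the genes listed as differing between tdTomato+ and tdTomato- group 2 innate lymphoid cells (ILC2s) of the mouse lung. They were chosen by symbol, as every listed gene whose name begins like those of the Smarc, Hdac, Kdm, Kmt, Chd, Arid, Kat, Setd, Brd, Dnmt, Suv39, Ezh, Ncor and numbered Cbx families, plus Tet1 to Tet3 and Suz12. Of 3439 listed genes, 66 met this rule. Of these, 64 were listed as lower in tdTomato+ ILC2s and 2, Tet1 and Hdac9, as higher.

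RNA was sequenced from lung ILC2s with the genotype TIGIT-Cre-ERT2:Rosa26-LSL-tdTomato, treated with papain (a protease allergen) and tamoxifen. Both populations carried the same alleles and had both agents, and were separated by the reporter. A Cre recombinase that tamoxifen activates is expressed from the Tigit locus and removes a stop cassette in front of tdTomato, so tdTomato marks cells that expressed the receptor TIGIT while tamoxifen was present, whether or not they still did when they were sorted. The labels give 4 tdTomato- and 4 tdTomato+ RNA libraries, and 2 ATAC-seq libraries of each population that were not analysed here. Age was not in the sources used here, and the labels do not say whether the libraries came from separate animals.

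Values of single libraries were not analysed here. The 2 gene tables gave for each gene the direction, by the table it stood in, and an average log2 CPM (read counts scaled to library size, on a log2 scale) over libraries of both populations. That average has no SD and no n, says nothing of the level in either population alone, and cannot be tested. The authors' fold changes, deposited beside these averages, were not used here, and the depth is unknown. Every statement on direction means only that a gene was listed as lower or higher in tdTomato+ ILC2s. A gene in neither table may have missed the limit on significance or the limit on level, and its direction is not known. The lowest average was 5.00 in both tables.

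Chromatin regulators act in layers. Remodelers of the SWI/SNF, ISWI, CHD and INO80 classes use ATP to slide, evict or exchange nucleosomes. Writers and erasers add or remove methyl and acetyl groups on histone tails and methyl groups on DNA, and readers such as bromodomain and chromodomain proteins bind those marks. At pericentromeres, where mouse major satellite repeats lie, methylation of histone H3 at lysine 9 is bound by the HP1 proteins, which in turn recruit enzymes that methylate histone H4 at lysine 20, and DNA methylation is maintained by Dnmt1 with Uhrf1.

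The promoters of 4 members are shown first, because the genes listed lower and those listed higher lay far apart in CpG content. Each line gives the 250 bases before the RefSeq start that lies farthest upstream (build GRCm38.p6), 5′ to 3′ on the gene's strand, with CpG dinucleotides in capitals. Cbx5 (HP1 alpha, at chr15:103239853-103240102, minus strand) and Kmt5b (an H4 lysine 20 methyltransferase, at chr19:3767171-3767420, plus strand) are heterochromatin genes listed lower. Hdac2 (chr10:36974294-36974543, plus strand) and Hdac9 (chr12:34917096-34917345, minus strand) are histone deacetylases listed in opposite directions. None of the 4 windows overlaps an annotated exon.
Cbx5: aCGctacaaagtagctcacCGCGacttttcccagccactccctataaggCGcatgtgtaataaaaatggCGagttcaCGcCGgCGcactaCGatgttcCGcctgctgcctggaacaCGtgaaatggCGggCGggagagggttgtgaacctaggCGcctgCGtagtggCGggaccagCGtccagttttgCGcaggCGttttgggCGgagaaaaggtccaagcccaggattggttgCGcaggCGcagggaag
Kmt5b: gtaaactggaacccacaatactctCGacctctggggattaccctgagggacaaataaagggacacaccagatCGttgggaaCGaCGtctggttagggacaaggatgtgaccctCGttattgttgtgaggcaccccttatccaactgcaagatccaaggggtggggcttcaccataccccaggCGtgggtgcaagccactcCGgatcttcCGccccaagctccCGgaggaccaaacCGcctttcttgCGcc
Hdac2: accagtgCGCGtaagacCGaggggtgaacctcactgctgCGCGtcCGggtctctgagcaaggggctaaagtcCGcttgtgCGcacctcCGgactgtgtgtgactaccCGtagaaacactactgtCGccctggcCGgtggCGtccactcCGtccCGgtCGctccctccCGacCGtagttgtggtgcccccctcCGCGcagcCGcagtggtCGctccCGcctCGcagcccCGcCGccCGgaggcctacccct
Hdac9: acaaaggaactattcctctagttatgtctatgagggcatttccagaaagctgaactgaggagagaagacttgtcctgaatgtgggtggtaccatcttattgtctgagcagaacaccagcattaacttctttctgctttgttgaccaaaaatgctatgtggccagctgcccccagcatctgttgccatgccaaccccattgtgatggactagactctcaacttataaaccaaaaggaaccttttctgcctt

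These windows held 22 CpGs in Cbx5, 11 in Kmt5b, 27 in Hdac2 and none in Hdac9. The window of Tet1, the other member listed higher, held 15, more than that of Kmt5b. At another listed start Cbx5 had 7 CpGs, Kmt5b 31 and Hdac9 2, and which start these cells used was not measured.

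Listing as lower was frequent in these families. Of 119 annotated protein-coding mouse genes that match the symbol rule, 64 (53.8%) were listed lower, 2 (1.68%) higher and 53 (44.5%) in neither table. Over all 21951 annotated protein-coding genes, 13.2% were listed lower and 2.31% higher. That background includes genes that ILC2s do not express, and among listed genes alone 84.5% were lower, beside 97.0% of the members. Other genes that encode subunits of the same complexes but do not match the rule had a share near that of the matching genes, with 62 of 126 (49.2%) listed lower and none higher. Each of 12 ILC2 markers (among them Gata3, Il7r and Il1rl1) was also listed lower, with averages from 6.27 (Il13) to 9.98 (Il1rl1), while none of 16 markers chosen for T, B, NK, myeloid and epithelial cells was in either table. That count depends on the choice: Cd3g, a further CD3 chain of T cells, was listed lower and Cr2, a complement receptor of B cells, higher, both looked up after the tables were seen. The genes listed lower thus took in the defining genes of the labelled cell type as well as the chromatin genes, and the part of the one in the other was not tested. In sorted pools, fewer transcripts per cell and fewer cells that express a gene cannot be told apart.

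**Figure D1:**
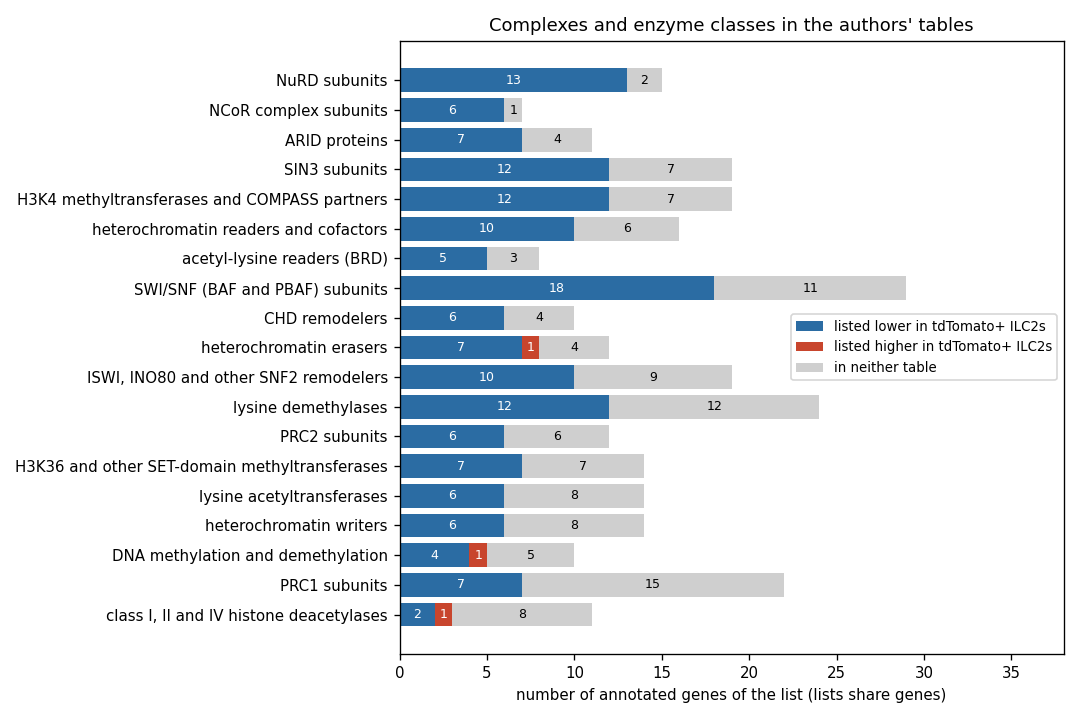
Number of annotated genes of each complex or enzyme class that were listed lower (blue) or higher (red) in tdTomato+ ILC2s, or in neither table (grey), with 1 gene counted in each list it belongs to. NuRD has the largest share listed lower (13 of 15), and the histone deacetylases the smallest (2 of 11, with 1 higher).

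The families differed in how many of their genes were listed. All 5 Kmt2 genes and all 3 Tet genes were in a table. By contrast, 8 of 11 Hdac genes, 4 of 5 Dnmt genes and both Suv39h genes were in neither. Several close paralogs were split in this way: Smarcc2 was listed lower but Smarcc1 was not listed, Ezh2 but not Ezh1, Setd1b but not Setd1a, Kat6a but not Kat6b, and Kdm5a and Kdm5c but not Kdm5b. No test of the difference between such paralogs was possible, because a gene that is not listed has no value.

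The H3 lysine 4 methyltransferase family had the highest median of the roles in average log2 CPM, 7.92 over 7 genes, all listed lower. That order is not corrected for length, and the correction depends on the length used. Per coding kb the family's median, 36.5 CPM, was lower than that of 8 of the other 10 roles. Per kb of all exons its median, 20.8 CPM, was the highest of the roles, just above the acetyltransferases and acetyl readers (20.6). Kmt2d, which with Kmt2c methylates enhancers, averaged 9.26 (611 CPM), Kmt2a (MLL1) 8.82 and Kmt2c 8.72. Kmt2e followed at 7.92, Setd1b (a catalytic subunit of a COMPASS complex) at 6.92, Kmt2b at 6.88 and Setd7 at 6.18. Of the core shared by these complexes Rbbp5 (5.89) was lower, and Wdr5, Ash2l and Dpy30 were in neither table. Of partners found in some of them, Hcfc1 (6.87), Ncoa6 (6.44), Kdm6a (6.35) and the CpG-binding Cxxc1 (5.54, the lowest of the 12 listed lower in that list) were lower, and Men1 was not listed.

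The CHD and ISWI remodelers came next, with a median of 7.49 over 7 genes. Chd4, the ATPase of the NuRD repressor complex, averaged 8.59 (384 CPM) and its paralog Chd3 256 CPM. Chd2, Chd8 and Chd1 lay between 7.77 and 7.20, Smarca5 (the ISWI ATPase SNF2H) at 7.29 and Chd7 at 7.13, the lowest of the 6 listed CHD genes. Of 10 CHD genes Chd1l, Chd5, Chd6 and Chd9 were not listed. NuRD was nearly complete among the lower genes, with 13 of 15 subunits down to Mbd3 at 5.32. Of 19 genes of the ISWI, INO80 and other SNF2 classes 10 were lower, from Hltf (6.03) to Atrx (8.42).

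SWI/SNF subunits spread over the range of the members. Both ATPases were listed lower, Smarca2 (BRM) at 7.63 and Smarca4 (BRG1) at 7.41, and so were the DNA-binding subunits Arid1a (8.38, the highest of the list), Arid1b (7.26) and Arid2 (6.40). The core subunits Smarcc2, Smarce1 and Smarcb1 averaged 7.14, 6.72 and 5.84, the bromodomain subunits Brd7 and Brd9 6.18 and 6.03. Smarcd2 (5.66) and Smarcd1 (5.33) were among the 5 lowest members. With partner subunits, 18 of 29 were lower, none higher, and 11 not listed, Smarcc1, Smarcd3 and Actl6a among them.

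Co-repressors and deacetylases held the member with the highest level and 1 of the 2 listed higher. Ncor1, the scaffold that carries Hdac3 to nuclear receptors, averaged 9.60 (778 CPM) and ranked 31 of the 2906 lower genes. Of the NCoR complex 6 of 7 genes were lower, down to Tbl1x at 5.58, and Hdac3 itself was in neither table. The class I enzymes Hdac1 (6.40) and Hdac2 (5.87) were lower. In the SIN3 complex, which shares them, 12 of 19 were lower, from Ing1 (5.00) to Arid4b (7.38), and Arid4a averaged 6.59. Hdac9, a class IIa deacetylase that acts largely as a co-repressor of MEF2 factors, was higher, with an average of 5.87, equal to that of Hdac2 at this precision. That match is not corrected for length: Hdac2 had 39.9 CPM per coding kb and Hdac9 18.3, and per kb of all exons 13.1 and 3.99.

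Acetyltransferases and acetyl readers were listed only in part. Kat6a (MOZ) averaged 7.91, the highest of the acetyltransferase list, and Kat2b (PCAF) 6.19, the lowest, with 6 of 14 listed lower. The bromodomain protein Brd2, which binds acetylated histones at transcribed genes, averaged 7.33, and Brd1 6.65. Of the BRD list, 5 of 8 were lower and Brd9 was the lowest. Brd3 was not listed.

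Polycomb subunits had the lowest median of the roles in average log2 CPM but, per coding kb, the third highest (41.3 CPM), above the H3 lysine 4 family. That order holds for coding length only: per kb of all exons their median was 13.2 CPM, below the 20.8 of the H3 lysine 4 family. Ezh2, which methylates H3 at lysine 27, averaged 6.46 and its partner Suz12 6.52. The chromodomain readers of that mark, Cbx7 and Cbx6, averaged 5.68 and 5.30, and Cbx6 had the lowest average of all 66 members. Of PRC2, 6 of 12 genes were lower, with Aebp2 (7.70) and Eed (5.68) at the ends. Of PRC1, 7 of 22 were lower, from Phc3 (7.45) to Cbx6, the smallest share of the complexes.

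Demethylases were listed in 9 of 18 Kdm genes, all lower. Kdm3b (7.37), Kdm2a (7.37) and Kdm5a (7.34) had the highest averages of the 9, and Kdm5c (6.15) the lowest. The H3 lysine 27 demethylases Kdm6b and Kdm6a averaged 6.97 and 6.35. With genes of other names, 12 of 24 were lower, and Jmjd1c (8.09) and Riox2 (5.74) were at the ends. The remaining SET-domain genes were Setd5 (7.90), the H3 lysine 36 writer Setd2 (7.36), Kmt5b (6.72), the actin methyltransferase Setd3 (6.36) and Kmt5a (5.70). In the H3 lysine 36 and other SET-domain list, 7 of 14 were lower and Nsd1 (8.33) was the highest. Of the other ARID genes, Arid5b averaged 128 CPM and Arid5a, which binds RNA, 81.2 CPM. In the ARID list 7 of 11 were lower.

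Of 42 annotated writers, readers and erasers of heterochromatin marks in 3 lists, 23 (54.8%) were lower, 1 higher and 18 in neither table. That share lower was near the 53.8% of all genes that match the symbol rule and the 49.2% of partner genes. Of these 23, 12 match the symbol rule.

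Among 14 writers 6 were lower. Dnmt1, the maintenance DNA methyltransferase, averaged 7.31, the H3 lysine 9 enzymes Ehmt2 (G9a) 6.96 and Ehmt1 (GLP) 6.22, and Prdm2, a further H3 lysine 9 enzyme, 6.22. Kmt5b, which places H4 lysine 20 dimethylation, averaged 6.72 and Kmt5a, which places the monomethyl mark, 5.70. The enzymes best known for trimethylating H3 lysine 9, namely Suv39h1, Suv39h2, Setdb1 and Setdb2, were in neither table, nor were Kmt5c, Dnmt3a and Dnmt3b. For these, no statement on direction can be made.

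Among 16 readers and cofactors 10 were lower, all 3 HP1 genes included. Cbx5 averaged 6.61 (97.4 CPM), Cbx3 (HP1 gamma) 6.39 (84.0 CPM) and Cbx1 (HP1 beta) 5.52 (45.8 CPM). Annotated pseudogenes named after Cbx3 number 8, so reads of Cbx3 could have been split or lost in counting. Atrx, a remodeler that deposits histone H3.3 at pericentromeres, averaged 8.42, the highest of the list, and Smchd1 7.54. Mbd1, which binds methylated DNA, averaged 6.57, Morc3 6.52, the KAP1 co-repressor Trim28 6.04 and Uhrf1 5.94. Daxx (the partner of Atrx), Hells, Mphosph8, Adnp, Chaf1a and Atf7ip were not listed.

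Among 12 erasers 7 were lower and Tet1 was higher. The H3 lysine 9 demethylases Kdm3b, Kdm7a, Kdm4c, Kdm4a and Phf2 averaged 7.37, 6.80, 6.42, 6.21 and 5.90. The 3 Tet genes, which oxidize methylcytosine, were listed in opposite directions: Tet3 (7.30) and Tet2 (6.90) lower, Tet1 (5.65, or 50.2 CPM) higher. Tet1 also had the lowest average of the erasers.

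**Figure D2:**
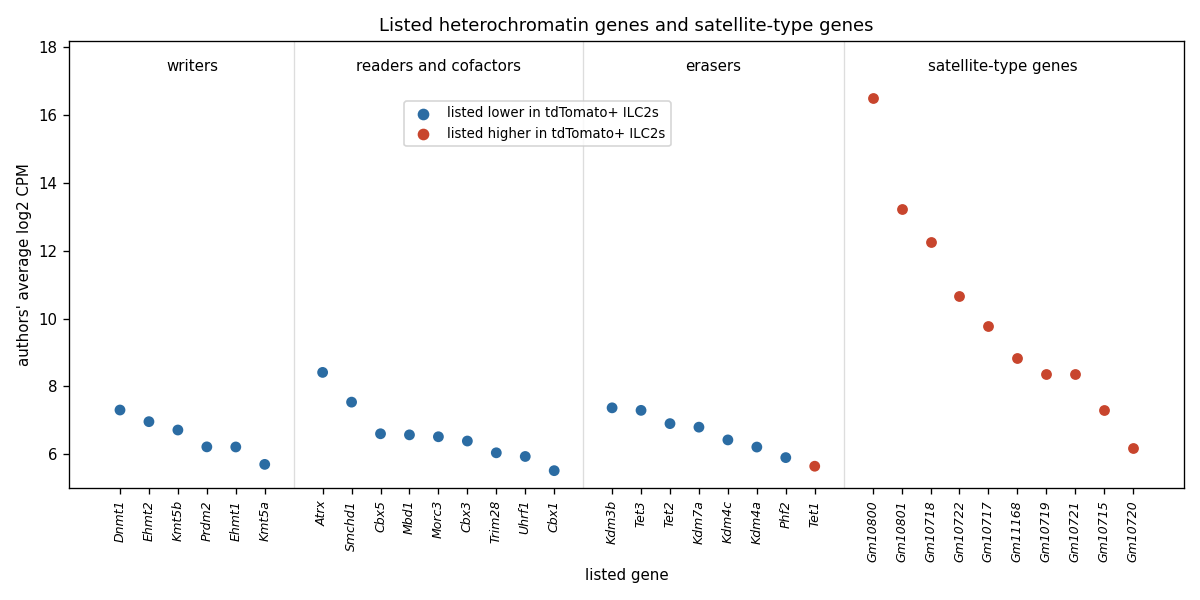
Average log2 CPM over both populations of 23 listed heterochromatin writers, readers or cofactors, and erasers, and of the 10 satellite-type genes (blue, listed lower; red, listed higher in tdTomato+ ILC2s). The heterochromatin genes lie between 5.52 and 8.42 and the satellite-type genes between 6.18 and 16.49.

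All 10 genes whose deposited type is major satellite repeat were higher and none was lower. Their averages ran from 6.18 (Gm10720) to 16.49 (Gm10800), with a median of 9.32. Set against the nominal CPM total, the average of Gm10800 came to 9.23% and the 10 genes together to 11.1%, beside 1.01% for the 64 lower members. Averages over libraries need not add up to that total, so these are not shares of any library. CPM values share 1 total, so a rise of the satellite reads lowers the CPM of other genes unless the scaling removes it. The part this plays in the members' listing was not tested. Summed, the average CPM was 227 for the 3 HP1 genes and 110595 for the satellite-type genes, or 18336 without Gm10800.

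The lower members had higher averages than lower genes in general, a median of 6.91 (range 5.30 to 9.60) beside 6.39. They were also longer. Their median coding length was 3863 bases beside 1533 for all lower genes, 53 of 64 exceeded the latter, and 23 of the 209 lower genes with more than 5 kb of coding sequence were members. Per kb of coding length the order turned: the members' median was 38.4 CPM per kb beside 51.3 for all lower genes, and 12 of 64 exceeded the latter. No listed gene averaged below 5.00, so the lowest level per kb that a listed gene can have rises as its coding length falls. How much of the turned order this accounts for was not tested. Within classes of coding length, the members' median was above that of the other lower genes in 4 of 5 classes, with no test. Over 5 kb, 23 members had a median of 29.1 CPM per kb and 186 other genes 24.8 (interquartile range 18.4 to 34.1). The class from 1 to 2 kb went the other way, where 13 members had 45.5 and 1020 other genes 51.8 (interquartile range 37.0 to 79.7). Matching genes that were in neither table had a shorter median coding length than the lower members, 2337 bases, and 5 of 53 exceeded 5 kb. The limit on average CPM is not corrected for length, and its part in that difference was not tested.

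**Figure D3:**
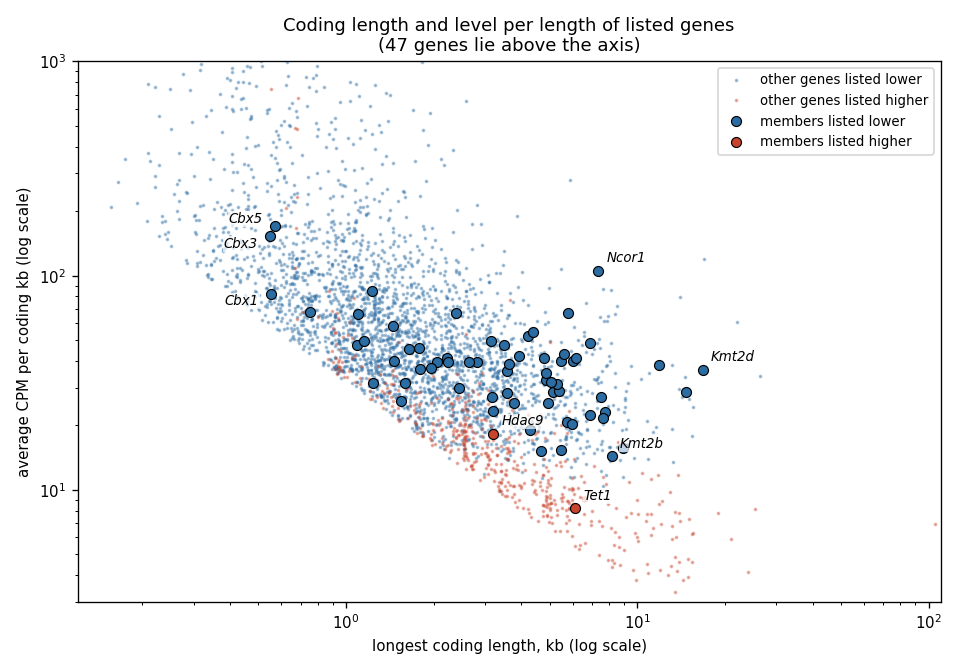
Average CPM per coding kb against the longest coding length (both axes log scale) for listed genes (small points) and members (outlined), blue for lower and red for higher. The lower edge is the limit on average level; Ncor1 stands above genes of like length at 106 CPM per kb, and Tet1 lies near the edge at 8.20.

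Ranked per coding kb, the order of single members changed. Cbx5 came first at 170 CPM per kb and Cbx3 second at 153, followed by Ncor1 at 106, and Kmt2b was the lowest of the lower members at 14.4. Kmt2d, at 36.5 CPM per coding kb, fell to rank 36, but per kb of all exons it ranked 3 (30.7 CPM per kb). The HP1 genes have short coding regions and long exons outside them, and per kb of all exons Cbx5 ranked 46 (10.8 CPM per kb), Cbx1 47 (10.7) and Cbx3 29 (14.0), with Ncor1 first at 60.8 and Chd4 second at 47.9. A high level of HP1 transcripts relative to other members therefore holds for coding length only.

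The averages of Tet1 and Hdac9, 5.65 and 5.87, lay beside a median of 5.57 for all higher genes. Per coding kb, Tet1 had 8.20 CPM and Hdac9 18.3, beside a median of 14.8 for higher genes. Hdac9 spans 869516 bases (chr12:34047580-34917095 in GRCm38) and Tet1 104427 bases (chr10:62804570-62908996), beside a median span of 146677 for higher genes and 28647 for lower genes. Among higher genes, Hdac9 lay at percentile 92.5 of span and Tet1 at percentile 38.5, and in coding length at percentiles 50.2 and 82.8. Whether their reads came from exons of mature transcripts or from elsewhere in the gene was not measured here.

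Promoters of 47 members were in the RefSeq table, 45 of lower members and both of higher ones. The CpG ratio (observed over expected CpGs in the 300 bases from 250 before to 50 after the start) had a median of 0.875 in the lower members and 0.827 in all 2328 lower genes with a promoter, beside 0.447 in 402 higher genes, 0.599 in 16517 protein-coding genes and 0.389 in all 27018 promoters of the table. It exceeded 0.6 in 39 of 45 lower members (86.7%), 79.6% of all lower genes, 49.9% of protein-coding genes and 37.6% of all higher genes. Matching genes in neither table had a like share, 41 of 46 (89.1%). Hdac9, with a ratio of 0, lay with the CpG-poor genes, and Tet1, at 0.607, near the limit. Dnmt1 was the heterochromatin writer with the lowest ratio, 0.101, at its farthest upstream start, but 0.910 at another of its 3 listed starts.

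**Figure D4:**
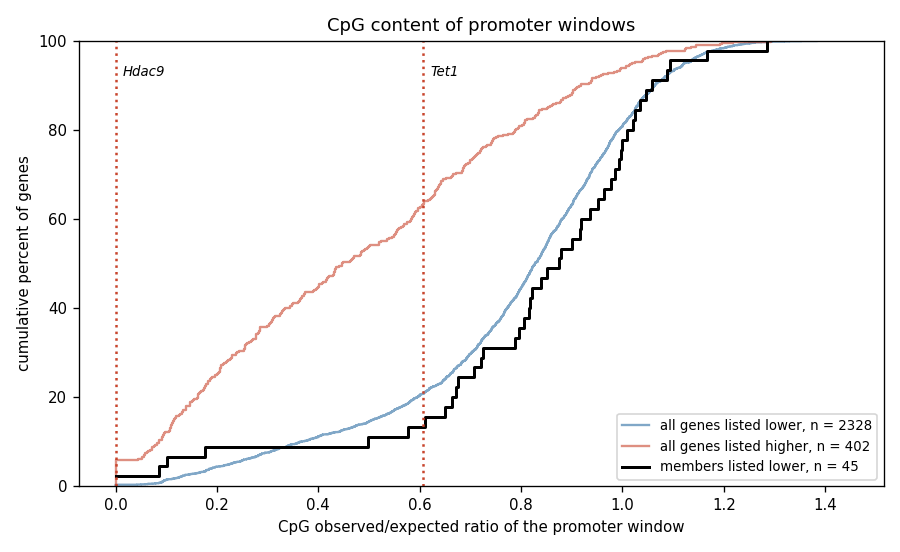
Cumulative percent of genes (vertical axis) by CpG ratio of the promoter window (horizontal axis) for the 45 lower members (black), all lower genes (blue) and all higher genes (red), with Hdac9 and Tet1 as dotted lines. The members' curve runs close to that of all lower genes, and the higher genes lie at lower ratios.

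Short motifs were rare in these windows and are given as a description. On both strands, the GATA-type letters AGATAA occurred in 4 of 45 lower members (8.89%; Cbx3, Chd4, Kdm4c and Setd5), 5.88% of all lower genes and 11.4% of all promoters. The ETS-type letters CCGGAAGT occurred in 0 of 45 lower members, 8.59% of all lower genes and 3.99% of all promoters, and the KLF-type letters GGGTGTGG in Brd2 alone, 4.04% and 3.60%. The 3 motifs do not overlap each other in sequence, and a match is neither a bound site nor a cause.

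Some members share exonic bases with other annotated genes, and whether their reads were separated was not established. Another gene lies over exons of 27 members, and over at least 10% of the exonic bases of 4, among them Kdm3b (24.6%, opposite strand), Chd2 (18.4%, same strand) and Smarcd1 (12.7%, opposite). The kits named in the sources keep strand, but whether counting used it was not given in the sources used here. Besides Cbx3, pseudogenes are named after Kat2b, Smarca5 and Smarce1, 1 each. The members lay on 18 chromosomes, 8 of them on chromosome 11 and 2 on the X chromosome (Kdm5c and Kdm6a).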

How the data were processed

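RNA of tdTomato- and tdTomato+ lung ILC2s (4 labelled libraries each) had been made into libraries with a SMARTer Stranded RNA-Seq Kit per the labels and a SMART-Seq Stranded Kit per the methods. Per the methods and the submitters' processing notes, reads were trimmed (FASTP), aligned with STAR, counted per gene with featureCounts (Subread) and compared with edgeR by the authors, on GRCm39 per the methods and mm10 per the notes, with Ensembl annotation. Tool versions were not given in the sources used here, nor was which libraries entered the comparison. The 2 deposited tables hold, per gene, an average log2 CPM over libraries, and columns of the authors' own comparison (log2 fold change, likelihood ratio, p-value and FDR), of which none was used. Only the average log2 CPM and the table a gene stood in were used, so no test, error or interval could be computed, and the depth per sample is unknown.

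Members were matched by symbol and Ensembl ID to GENCODE M21 (GRCm38; 66 of 66 found) for coordinates, the longest coding length and the union of exons, and by symbol to RefSeq promoters (GRCm38.p6; 47 of 66 found), 1 per gene, the start farthest upstream. CPM was taken as 2 to the power of the average. Helper functions were tested on simulated data. The members and gene lists were chosen with earlier results of these data known, and the roles were assigned after the members were seen. Named with values were, by rule, every higher member, the listed heterochromatin genes, the 5 lower members with the highest and the 5 with the lowest average, and the ends of each list. Other members were added for their place in a complex. Some genes that this rule names are not reported here. Computed with Python 3.11.15, pandas 2.3.3, numpy 2.4.6, pysam 0.24.0, samtools 1.23.1 and matplotlib 3.10.9.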

Additional observations from a re-analysis of the deposited data

How the results depend on the processing

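No paired analysis was possible because each gene has 1 average and no library columns, and no library could be left out for the same reason. Counting partner subunits with the members gave 126 lower genes instead of 64. An average log2 CPM of at least 6 left 0 higher members, and a median of 7.13 for the lower ones instead of 6.91; their mean was 6.97. The members' median level per kb was 74.9% of that of all lower genes by coding length and 87.0% by exonic length. Heterochromatin genes listed lower numbered 12 instead of 23 with rule-matching genes alone. On the gene's strand only, AGATAA occurred in 2 lower members and GGGTGTGG in 0. With any listed start, an alternative chosen after seeing the data, GGGTGTGG occurred in 2, and the share of promoters with a CpG ratio over 0.6 was 91.1% in lower members and 41.3% in all higher genes. The other alternatives left counts within 1.5 times. The averages carry no error, so none of these shifts can be set against replicate spread.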
